A study of Homo sapiens with 9 samples.

Results

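Transcripts of 10 base excision repair genes around OGG1 were followed in HMC3 cells, a line of human microglia immortalized with SV40 large T antigen. The members were set by name: the 8-oxoguanine glycosylase OGG1 with its partner MUTYH, the glycosylases NTHL1, NEIL1, NEIL2, NEIL3 and UNG, the endonuclease APEX1, the scaffold XRCC1 and the polymerase POLB. They are 10 of the 61544 genes listed, and all 10 were among the 14727 tested, although NEIL1 entered the test only through its level in one group. The SLO group received 10 µM SBI-0206965, which inhibits ULK1, a kinase that starts autophagy, together with 1 µM O-151, an inhibitor of the OGG1 protein, and 1 µM Lopinavir, which blocks the processing of Lamin A. The SLO ½ group received 5 µM SBI-0206965 with 0.5 µM each of O-151 and Lopinavir, and the VEH group received their solvent DMSO. Cells of all 3 groups had a WT genotype and were collected after 6 days of treatment, with 3 polyadenylated RNA libraries per group. As the compounds were given only together, the part of O-151 in any change cannot be told apart from that of the other two. The sources do not say whether the replicates were separate cultures, so p-values measure the spread between these libraries, which may be technical.

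Base excision repair removes small lesions such as oxidized, deaminated or alkylated bases. A DNA glycosylase flips out and cuts off the damaged base, APEX1 nicks the strand at the empty site, POLB fills the gap and XRCC1 holds the ligase in place, while a longer repair tract uses the replication polymerases, PCNA, FEN1 and LIG1. OGG1 removes 8-oxoguanine paired with cytosine, the most studied oxidized base, and the pathway is a main defence of the brain's cells against oxidative damage to nuclear and mitochondrial DNA. O-151 acts on the OGG1 protein, and transcript levels do not measure enzyme activity.

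Promoter sequence from RefSeq (GRCh38.p14) is shown for OGG1, the drug's target, and for the 3 members with the lowest adjusted p in SLO against VEH, UNG, APEX1 and XRCC1, so that the target's promoter and those of transcripts that fell can be read side by side. The stretches lie upstream of the annotated starts, without exon bases, and run 5′ to 3′ on the gene's strand. They hold 242 bases for OGG1, 250 and 196 for the starts of UNG, 101 for APEX1 and 159 for XRCC1. Counts of matches are therefore not from equal windows. Capitals mark matches, on either strand, to an E2F site (TTTCCCGC, TTTCGCGC, TTTGCCGC or TTTGGCGC), a CCAAT box (CCAAT), a GC box (GGGCGG), a CHR element (TTTGAA) or an antioxidant response element (TGACNNNGC). The E2F and CHR letters are known from genes of dividing cells, and the antioxidant element from genes of the oxidative stress response.
OGG1, chr3:9749702-9749943, plus strand: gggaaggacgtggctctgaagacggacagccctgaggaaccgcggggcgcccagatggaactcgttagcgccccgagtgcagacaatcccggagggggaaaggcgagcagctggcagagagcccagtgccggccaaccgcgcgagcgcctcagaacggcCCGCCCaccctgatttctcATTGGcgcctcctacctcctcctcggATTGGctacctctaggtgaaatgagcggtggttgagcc
UNG, first start, chr12:109097347-109097596, plus strand: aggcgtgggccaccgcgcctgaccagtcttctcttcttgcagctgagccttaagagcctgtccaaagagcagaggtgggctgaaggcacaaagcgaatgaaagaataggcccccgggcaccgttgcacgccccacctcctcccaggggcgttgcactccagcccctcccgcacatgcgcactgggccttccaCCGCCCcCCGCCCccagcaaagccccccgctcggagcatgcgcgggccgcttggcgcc
UNG, second start, chr12:109097922-109098117, plus strand: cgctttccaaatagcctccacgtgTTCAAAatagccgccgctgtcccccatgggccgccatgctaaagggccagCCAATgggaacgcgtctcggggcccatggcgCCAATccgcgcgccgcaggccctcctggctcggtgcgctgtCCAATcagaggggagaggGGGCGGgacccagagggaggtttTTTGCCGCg
APEX1, chr14:20455090-20455190, plus strand: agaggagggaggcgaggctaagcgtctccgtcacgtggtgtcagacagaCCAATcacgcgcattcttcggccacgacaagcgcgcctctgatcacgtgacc
XRCC1, chr19:43575619-43575777, minus strand: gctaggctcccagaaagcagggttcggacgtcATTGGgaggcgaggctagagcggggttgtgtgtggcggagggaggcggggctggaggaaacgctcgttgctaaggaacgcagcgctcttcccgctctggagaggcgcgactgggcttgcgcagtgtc

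Within these stretches OGG1 held 2 CCAAT boxes, both read on the opposite strand, and 1 GC box. The second start of UNG held 3 CCAAT boxes, 1 GC box, 1 CHR element and the E2F letters TTTGCCGC next to the gene's exon, whereas its first start held 2 GC boxes alone. APEX1 and XRCC1 held 1 CCAAT box each. The full 250 bases of XRCC1 also held 1 GC box and 1 CHR element, and those of the second start of UNG held 3 GC boxes. Over the 250 bases upstream of 13 RefSeq starts of 8 members, the E2F letters were found at 1 start, the CCAAT box at 8, the GC box at 10, the CHR element at 4 and the antioxidant response element at 2, with 1 of MUTYH and 1 of NTHL1. Of the 35116 promoters of the same length in the RefSeq set, 2.79% held the E2F letters, 32.0% the CCAAT box, 42.6% the GC box, 13.3% the CHR element and 10.9% the antioxidant element. The matches describe letters and not bound sites, and a missing match says only that these letters are not in the window. NEIL2 and POLB had no entry in the set.

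Reads assigned to genes numbered 14834295 to 19674841 per library, and the common biological coefficient of variation was 3.76%. No library stood out in its share of unmapped reads (0.883% to 0.984%). The scaling factor separated the groups, with 0.968 to 0.974 for VEH, 1.003 to 1.008 for SLO ½ and 1.015 to 1.035 for SLO. Multimapping reads did too, with 8.35% to 8.52% for VEH, 7.83% to 7.95% for SLO ½ and 7.16% to 7.31% for SLO. The labelled cell type was checked against marker genes. Of 12 microglia markers, 7 (AIF1, CX3CR1, P2RY12, TMEM119, PTPRC, SPI1 and C1QA) had at most 3 counts in every library. Fibroblast and mesenchymal markers summed to 4533 to 4882 CPM (reads per gene scaled to library size) for VEH, 5356 to 5437 CPM for SLO ½ and 5448 to 5690 CPM for SLO, led by COL1A1 and VIM. VIM itself rose in SLO ½ (0.18 on the log2 scale, adjusted p = 0.000328) but fell in SLO (-0.12, adjusted p = 0.0108). Of that list COL3A1 and LUM had at most 4 counts and DCN at most 12 in any library and were not tested, and PDGFRB fell in SLO (-0.28 on the log2 scale, adjusted p = 2.09e-05) and in SLO ½ (-0.51, adjusted p = 2.59e-09). The defining markers of microglia were thus largely absent, so the cells are called HMC3 below. Astrocyte markers summed to 15.0 to 19.9 CPM for VEH, 28.3 to 32.1 CPM for SLO ½ and 35.3 to 37.6 CPM for SLO, carried by SLC1A3, with AQP4 at most at 3 counts and GFAP at most at 5. ALDH1L1 of the same list went the other way and fell in SLO (-0.55 on the log2 scale, adjusted p = 0.0354). Neuron markers summed to 7.94 to 9.13 CPM for VEH, 13.1 to 14.2 CPM for SLO ½ and 16.2 to 18.9 CPM for SLO, with RBFOX3 at most at 3 counts. In SLO, SNAP25 (0.99 on the log2 scale, adjusted p = 4.68e-08) and MAP2 (4.51, adjusted p = 1.79e-11) rose. MAP2 went from 0 to 3 counts in VEH libraries to 45 to 48 in SLO libraries. SYT1 was not called in SLO (0.34, adjusted p = 0.0865). Both sums were low and stepped up with dose without overlap, and their part in the changes of the members was not tested.

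Per length of transcript, the members spanned 3 orders of size in VEH. By the deposited TPM, which scale reads by gene length and library size, the order was APEX1 (467 ± 14.9 TPM, SD, n = 3), UNG (225 ± 1.96), NEIL3 (76.1 ± 1.34), XRCC1 (41.7 ± 2.66), POLB (33.8 ± 1.34), NEIL2 (26.7 ± 0.732), NTHL1 (9.59 ± 1.01), OGG1 (8.84 ± 0.641), MUTYH (0.690 ± 0.152) and NEIL1 (0.309 ± 0.125). The abasic site endonuclease APEX1 was thus the most abundant transcript and OGG1 the eighth, and NTHL1 and OGG1 did not differ beyond their spread. In SLO ½ POLB (30.3 ± 2.04) and XRCC1 (28.5 ± 1.09) lay within their spread of each other, and in SLO so did XRCC1 (29.8 ± 1.01) and POLB (27.8 ± 1.37) as well as OGG1 (9.02 ± 0.831) and NTHL1 (7.06 ± 1.96). The rank of OGG1 depends on the length used: the length implied by its TPM is 8729 bases, close to the 8733 bases covered by the exons of all its 18 GENCODE v44 transcripts, whereas the Ensembl canonical transcript has 1630 bases. With canonical lengths OGG1 reached 10.1 ± 0.670 CPM per kilobase in VEH, the sixth of the 10, above NEIL2 (7.09 ± 0.239) and NTHL1 (4.81 ± 0.480). Scaled by the length covered by all exons, OGG1 was at 1.88 ± 0.125 CPM per kilobase in VEH. POLB moved as well, from rank 5 by TPM to rank 3 with canonical lengths. It was at 22.9 ± 0.952 CPM per kilobase in VEH with the canonical length and at 7.19 ± 0.299 with the exon length. UNG was at 59.4 ± 0.783 with its canonical length. UNG alone of the 10 members had an implied length, 2542 bases, far from the 5271 bases that its exons cover. Scaled by that exon length, UNG was at 23.1 ± 0.304 CPM per kilobase in VEH and 15.5 ± 0.520 in SLO, where NEIL3 (16.2 ± 0.387 in VEH) reached 17.4 ± 1.23.

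The first comparison, SLO against VEH, asked whether the full dose changed the repair transcripts. The members went down or did not pass the test. UNG, XRCC1, NTHL1, NEIL2, APEX1 and POLB fell, from POLB, which fell by 17.3%, to UNG, which fell by 32.6%, and OGG1, MUTYH, NEIL1 and NEIL3 were not called. A gene was called at an adjusted p below 0.05 in edgeR's quasi-likelihood test, adjusted over all 14727 genes. In bulk RNA, a fall from fewer cells of a kind and one from less RNA per cell cannot be told apart. Called members were thus 6 of 10, 0 up and 6 down, in a comparison where 64.9% of all tested genes were called, 32.9% up and 32.1% down, so the number of calls as such is close to the background. The median change of the members was -0.33 on the log2 scale, against 0.01 over all genes, and the median size of change was 0.38 against 0.34. Of the members, 5 had groups that did not overlap, against 66.7% of all genes.

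The comparison of SLO ½ against VEH, which shares the VEH libraries with the first, asked the same of the lower dose. UNG, XRCC1 and APEX1 fell, NEIL1 was called up at a very low level, a call lost in 10 of 18 alternatives from a test it entered only through this group, and the other 6 were not called. All genes were called in 52% of cases here, 26.7% up and 25.3% down. The median change of the members was -0.12 against 0.02 over all genes, and groups did not overlap for 6 of 10 members against 58.3% of all genes.

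OGG1 (ENSG00000114026.22, GRCh38 chr3:9749944-9788219, plus strand) was at 15.2, 17.3 and 16.8 CPM in VEH, 16.5, 17.0 and 15.3 CPM in SLO ½, and 17.6, 15.1 and 17.9 CPM in SLO. The 3 groups covered the same range, and the lowest and highest library of the 9 were both SLO libraries. Its log2 change was 0.03 (SE 0.09, adjusted p = 0.742) in SLO and -0.01 (SE 0.09, adjusted p = 0.925) in SLO ½, with 239 to 321 counts per library behind it. The 95% interval of the change was -9.32% to 15.6% for the full dose and -12.0% to 12.0% for SLO ½, so larger changes of the transcript lie outside the interval. The sign of so small a change moved with the scaling and with single libraries. Exons of OGG1 share 24.9% of their bases with CAMK1 and 4.08% with TADA3 on the opposite strand, which counting by strand, as the deposited labels have it, keeps apart.

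MUTYH (ENSG00000132781.20, chr1:45329163-45340893, minus strand), which removes adenine paired with 8-oxoguanine, was barely detected. It was at 0.825, 1.05 and 0.679 CPM in VEH, 0.908, 1.14 and 1.32 CPM in SLO ½, and 0.787, 1.47 and 1.13 CPM in SLO, from 13 to 25 counts per library. The groups overlapped. Changes of 0.43 (SE 0.31, adjusted p = 0.226) in SLO and 0.41 (SE 0.30, adjusted p = 0.265) in SLO ½ on the log2 scale were not called, and with an interval from -0.20 to 1.06 in SLO a change was not detectable at this depth. A same-strand gene, ENSG00000288208, covers 31.6% of the exon bases of MUTYH and is listed with 0 counts, and reads in shared same-strand exons are ambiguous in such counting and not assigned, so the level of MUTYH may be understated.

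**Figure D1:**
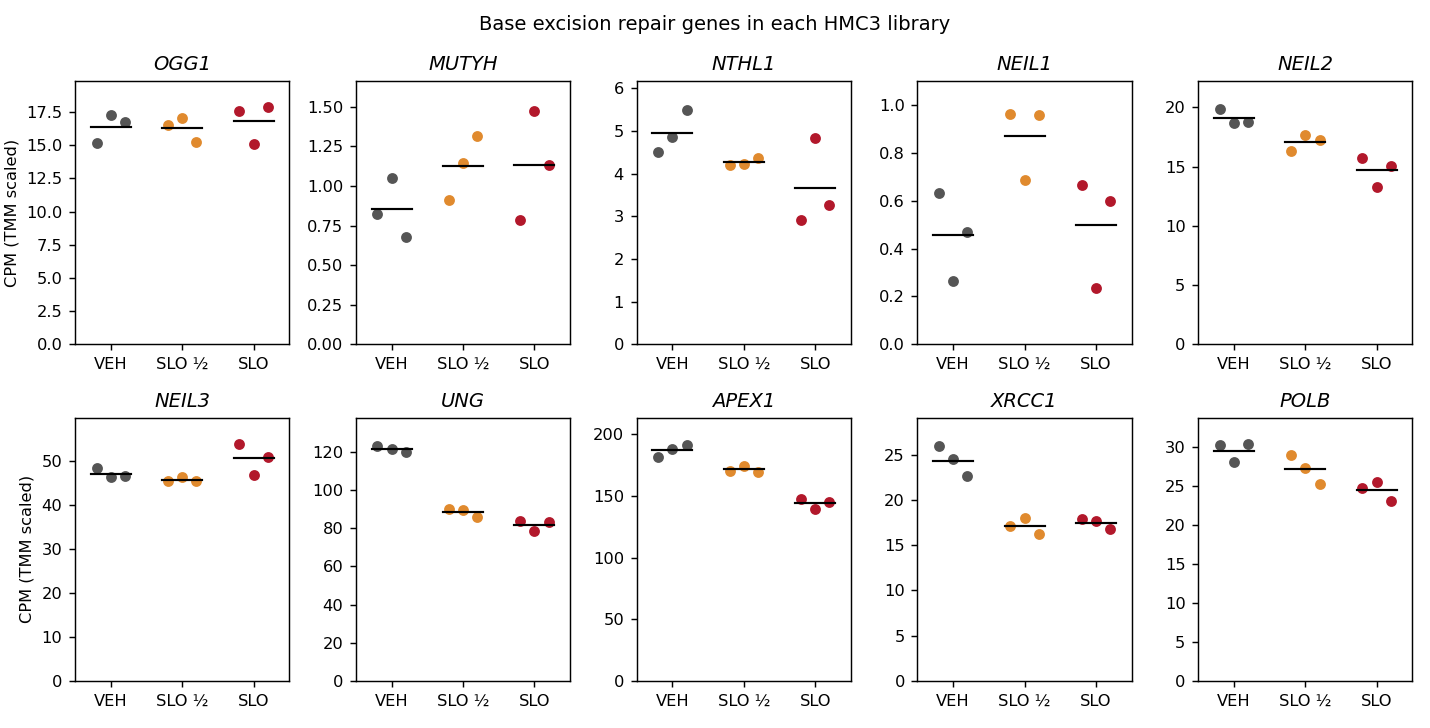
Each panel plots one member's CPM (linear axis from 0, scaled by TMM) in the 3 VEH, 3 SLO ½ and 3 SLO libraries, with points for libraries and lines for group means. UNG, XRCC1, APEX1 and NEIL2 lie lower in both treated groups than in VEH. OGG1 stays between 15.1 and 17.9 CPM in all 9 libraries, and MUTYH and NEIL1 lie at or under 1.47 CPM.

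The 4 glycosylases of oxidized pyrimidines did not move as a block. NEIL2 (ENSG00000154328.16, chr8:11769639-11787345, plus strand), which prefers lesions in bubbles and transcribed genes, was at 19.9, 18.7 and 18.8 CPM in VEH, 16.3, 17.7 and 17.3 CPM in SLO ½, and 15.7, 13.3 and 15.0 CPM in SLO. Every SLO library lay below every SLO ½ library, and those below every VEH library. NEIL2 fell by 0.38 on the log2 scale in SLO (SE 0.08, adjusted p = 0.000155), and its change of -0.16 in SLO ½ (SE 0.08, adjusted p = 0.0821) was not called, although limma called it on log2(TPM + 1) (adjusted p = 0.0257) and on log2(TPM + 0.1) (0.0248).

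NTHL1 (ENSG00000065057.9, chr16:2039815-2047866, minus strand), the endonuclease III homolog for oxidized pyrimidines, was at 4.51, 4.86 and 5.48 CPM in VEH, 4.20, 4.23 and 4.37 CPM in SLO ½, and 2.91, 4.83 and 3.26 CPM in SLO. One SLO library reached the range of VEH and the other two lay well below it. The fall of 0.43 in SLO (SE 0.17, adjusted p = 0.0232) was called in the main test but lost in 6 of 19 alternatives, with an adjusted p of 0.0552 in DESeq2, 0.0632 with library size alone, 0.113 without VEH replicate 3, 0.157 without SLO replicate 1, 0.0954 without SLO replicate 3 and 0.0889 with limma on unfiltered TPM. Its change in SLO ½ was -0.22 (SE 0.16, adjusted p = 0.25).

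NEIL3 (ENSG00000109674.4, chr4:177309874-177362936, plus strand), a glycosylase best known from dividing cells and single-stranded DNA, was at 48.5, 46.4 and 46.7 CPM in VEH, 45.4, 46.4 and 45.5 CPM in SLO ½, and 54.0, 46.9 and 51.0 CPM in SLO. Its libraries in SLO reached above all others, but the lowest of them lay within the range of VEH. The change of 0.10 in SLO (SE 0.06, adjusted p = 0.108) was not called in the main test. It was called without SLO replicate 2, the lowest of that group (0.16, adjusted p = 0.0203), and with library size alone (0.18, adjusted p = 0.00587). A filter of at least 10 counts in every library also made it called. In SLO ½ it was -0.04 (SE 0.06, adjusted p = 0.549).

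NEIL1 (ENSG00000140398.14, chr15:75346955-75357115, plus strand), which acts on oxidized pyrimidines ahead of replication, had only 4 to 17 counts per library. It was at 0.635, 0.263 and 0.470 CPM in VEH, 0.965, 0.686 and 0.958 CPM in SLO ½, and 0.666, 0.235 and 0.598 CPM in SLO. The SLO ½ libraries were above all others, and VEH and SLO overlapped. The filter asked for about 0.608 CPM in at least 3 libraries. Outside SLO ½ only VEH replicate 1 and SLO replicate 1 reached that level, so NEIL1 would not have been tested without SLO ½. The filter and the call in SLO ½ thus drew on the same libraries. Its rise of 0.91 in SLO ½ (SE 0.38, adjusted p = 0.0459) was lost in 10 of 18 alternatives, among them 0.0709 as the adjusted p with no expression filter, 0.146 in DESeq2, 0.177 without VEH replicate 2, 0.089 without VEH replicate 3, 0.118 without SLO ½ replicate 1, 0.117 without SLO ½ replicate 3 and 0.0517 without SLO replicate 3. In SLO the change was 0.11 (SE 0.44, adjusted p = 0.842).

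UNG (ENSG00000076248.11, chr12:109097597-109110992, plus strand), which removes uracil from DNA and is made in a nuclear and a mitochondrial form from the 2 starts shown above, carried the largest fall of the members in SLO. It was at 123.2, 121.8 and 120.0 CPM in VEH, 89.9, 89.6 and 86.0 CPM in SLO ½, and 83.9, 78.8 and 83.1 CPM in SLO. Neither treated group reached the range of VEH, and SLO lay wholly below SLO ½. UNG fell by 32.6% in SLO (log2 -0.57, SE 0.04, adjusted p = 1.71e-12) and fell by 27.2% in SLO ½ (-0.46, SE 0.04, adjusted p = 3.8e-10). Gene counts do not tell the products of the starts apart.

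APEX1 (ENSG00000100823.12, chr14:20455191-20457772, plus strand), the main endonuclease at abasic sites and also a redox factor, was at 182.0, 188.3 and 191.5 CPM in VEH, 170.7, 174.6 and 169.6 CPM in SLO ½, and 147.7, 139.4 and 145.3 CPM in SLO. The groups formed steps without overlap. APEX1 fell by 23.1% in SLO (log2 -0.38, SE 0.04, adjusted p = 2.1e-09) and fell by 8.37% in SLO ½ (-0.13, SE 0.04, adjusted p = 0.00845), where the call was lost with library size alone (-0.08, adjusted p = 0.0939).

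XRCC1 (ENSG00000073050.12, chr19:43543311-43580473, minus strand), the scaffold that gathers POLB and LIG3 at the nick, was at 26.0, 24.5 and 22.6 CPM in VEH, 17.2, 18.0 and 16.2 CPM in SLO ½, and 17.9, 17.7 and 16.8 CPM in SLO. Both treated groups lay below VEH and overlapped each other. XRCC1 fell by 27.9% in SLO (log2 -0.47, SE 0.08, adjusted p = 3.06e-06) and fell by 29.4% in SLO ½ (-0.50, SE 0.07, adjusted p = 1.89e-06). POLB (ENSG00000070501.12, chr8:42338454-42371808, plus strand), the gap-filling polymerase, was at 30.2, 28.1 and 30.3 CPM in VEH, 29.0, 27.3 and 25.3 CPM in SLO ½, and 24.7, 25.4 and 23.1 CPM in SLO. Its SLO libraries lay below VEH, while SLO ½ overlapped both. POLB fell by 17.3% in SLO (log2 -0.27, SE 0.07, adjusted p = 0.000888), and its change of -0.12 in SLO ½ (SE 0.07, adjusted p = 0.137) was not called, except by limma on log2(TPM + 0.1) (-0.16, adjusted p = 0.0492).

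**Figure D2:**
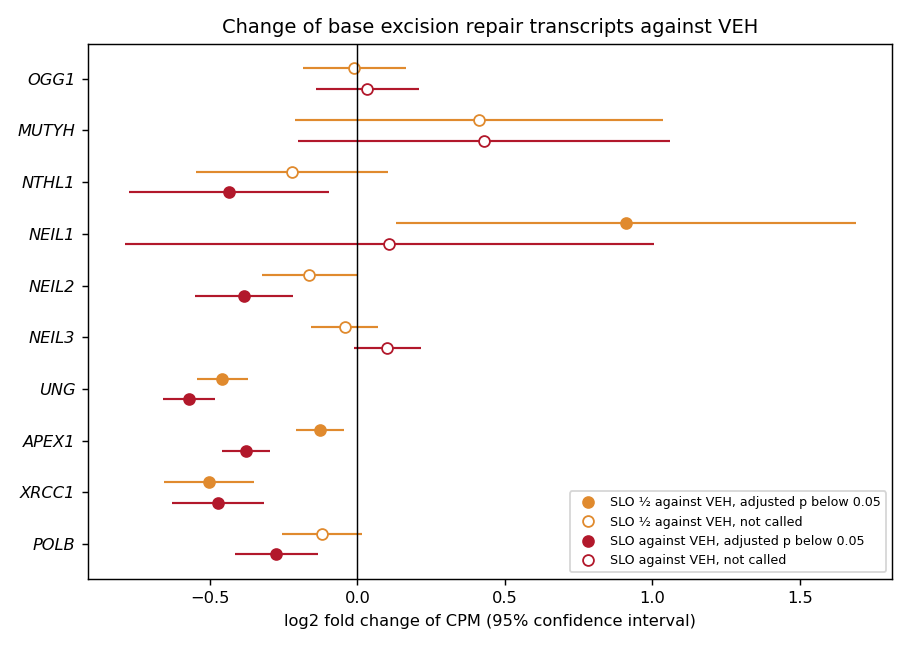
The log2 fold change of each member against VEH is plotted as a point with its 95% confidence interval, in orange for SLO ½ and red for SLO, filled where the adjusted p was below 0.05. The intervals of UNG, XRCC1, APEX1 and NEIL2 lie below 0 at both doses, although NEIL2 was not called in SLO ½. Those of OGG1 span 0 at both, and those of MUTYH and NEIL1 are the widest.

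The comparison of SLO against SLO ½ asked whether the doses differed. From the lower to the full dose APEX1 fell by 16.0% (log2 -0.25, SE 0.04, adjusted p = 8.47e-06) and kept its call in all 19 alternatives. NEIL2 (-0.22, adjusted p = 0.0327), UNG (-0.11, adjusted p = 0.0422) and NEIL3 (0.14, adjusted p = 0.037) were called in the main test, which makes 1 up and 3 down among 10 members, against 20.8% up and 20.3% down (41.1% in all) over all genes. The last 3 calls were fragile, lost in 10, 12 and 7 of 19 alternatives. Without SLO replicate 2 the adjusted p was 0.19 for NEIL2 and 0.176 for UNG, without SLO replicate 3 it was 0.051 for NEIL2, 0.0627 for UNG and 0.0915 for NEIL3, and without SLO replicate 1 it was 0.225 for NEIL3. Leaving out an SLO ½ library ended the call of UNG in each case (adjusted p from 0.0559 to 0.13), that of NEIL3 in each case (0.0597 to 0.0933), and that of NEIL2 without replicate 2 (0.11) or 3 (0.0918).

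XRCC1 differed by 0.03 between the doses (95% interval from -0.13 to 0.19, adjusted p = 0.79) and OGG1 by 0.04 (-0.13 to 0.22, adjusted p = 0.707). POLB (-0.16, adjusted p = 0.0725), NTHL1 (-0.21, adjusted p = 0.338), MUTYH (0.02, adjusted p = 0.971) and NEIL1 (-0.80, adjusted p = 0.0904) were not called either. POLB was called without SLO ½ replicate 3 (-0.20, adjusted p = 0.0433) and NTHL1 without SLO replicate 2 (-0.47, adjusted p = 0.0372). The groups did not overlap for 5 of 10 members, against 51% of all genes.

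Genes of dividing cells mostly fell as well. Of 20 proliferation markers, 16 fell and 3 rose in SLO against VEH, and 14 fell and 0 rose in SLO ½ against VEH. Over all genes 32.1% were called down and 32.9% up in SLO, and 25.3% down and 26.7% up in SLO ½. Their summed level was 7679 to 7885 CPM for VEH, 6321 to 6508 CPM for SLO ½ and 5676 to 5872 CPM for SLO. The sums of the groups thus did not overlap, but single markers did not all follow the sum. RRM2, for one, was at 514 ± 6.61 CPM for VEH, 434 ± 9.15 CPM for SLO ½ and 462 ± 15.5 CPM for SLO. The replication helicase subunits MCM6 (228 ± 6.90 CPM for VEH, 120 ± 1.46 CPM for SLO ½ and 112 ± 5.29 CPM for SLO) and MCM5 (140 ± 2.89, 104 ± 0.679 and 85.2 ± 1.57) and the mitotic cyclin CCNB1 (520 ± 12.4, 421 ± 9.60 and 302 ± 12.4) had the smallest p of the list. CDC6, CCNE2 and TYMS were the 3 that rose in SLO. The part of a lower share of dividing cells in the fall of UNG, APEX1, XRCC1, NEIL2 and POLB was not tested.

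Another 38 genes of the pathway were read in the same fit, from lists by role. In SLO against VEH 11 rose, 14 fell and 13 were not called, with a median change of -0.03. In SLO ½ 7 rose, 13 fell and 18 were not called, and between the doses 6 rose and 10 fell. With 64.9%, 52% and 41.1% of all genes called in these comparisons, the number of calls in the lists is near the background. No gene of these lists was called in opposite directions at the 2 doses against VEH.

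In SLO the 4 remaining glycosylases were all called up, in a comparison with 32.9% of all genes called up, whereas UNG fell. TDG, which removes thymine and uracil opposite guanine and acts in DNA demethylation, was at 35.7, 37.9 and 36.0 CPM in VEH, 51.1, 46.8 and 50.2 CPM in SLO ½, and 57.8, 56.9 and 62.3 CPM in SLO. The groups formed rising steps without overlap, and TDG rose by 61.4% in SLO (log2 0.69, SE 0.06, adjusted p = 7.79e-12) and by 35.2% in SLO ½ (0.43, SE 0.06, adjusted p = 2.07e-07). MPG, for alkylated purines, rose from 9.01 ± 1.44 CPM in VEH to 13.2 ± 0.241 in SLO (0.54, adjusted p = 5.95e-05) and to 11.7 ± 1.00 in SLO ½ (0.37, adjusted p = 0.00514, with 0.25 and an adjusted p of 0.0559 without VEH replicate 2). SMUG1, a second uracil glycosylase, rose in SLO (9.66 ± 0.304 to 12.3 ± 0.933 CPM, 0.35, adjusted p = 0.00285) and was not called in SLO ½ (0.07, adjusted p = 0.569). MBD4, for mismatched thymine at CpG sites, changed by 0.12 in SLO (adjusted p = 0.0351), a call lost in 10 of 19 alternatives, including those without VEH replicate 2 (adjusted p = 0.144), VEH replicate 3 (0.0544), SLO replicate 1 (0.139) or SLO replicate 3 (0.0896).

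Among the 5 genes of end processing 2 rose, 2 fell and 1 was not called in SLO, counts too small to set apart from the 32.9% up and 32.1% down of all genes. APEX2, the second abasic endonuclease, rose from 36.5 ± 3.25 to 45.0 ± 2.29 CPM in SLO (0.30, adjusted p = 0.00011). The other gene that fell beside TDP1 was APTX (-0.19, adjusted p = 0.00261), named after its value was seen. TDP1, which frees blocked 3′ ends, fell from 57.6 ± 5.22 to 38.7 ± 0.946 CPM in SLO (-0.57, adjusted p = 2.53e-09).

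The ligase of short-patch repair fell furthest of the 38 genes in SLO. LIG3, the partner of XRCC1 and the DNA ligase of mitochondria, was at 46.9, 45.5 and 45.4 CPM in VEH, 32.3, 32.4 and 32.4 CPM in SLO ½, and 24.2, 24.0 and 18.9 CPM in SLO. Each dose lay below the one before, and LIG3 fell by 51.1% in SLO (log2 -1.03, SE 0.07, adjusted p = 1.5e-13) and fell by 29.5% in SLO ½ (-0.50, SE 0.07, adjusted p = 1.89e-07). The strand break sensors PARP1 (418 ± 8.22 CPM in VEH, 298 ± 9.02 in SLO, -0.49, adjusted p = 4.25e-12) and PARP2 (97.1 ± 2.46 and 74.6 ± 1.98, -0.38, adjusted p = 1.48e-08) fell as well. HPF1, their cofactor, was the last of the 4 that fell (-0.24, adjusted p = 0.000872), named after its value was seen, and 0 of the 6 genes of this list rose, against 32.1% down and 32.9% up over all genes.

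In the long-patch branch 6 of 13 genes fell, 2 rose and 5 were not called in SLO, no more calls than the 64.9% of all genes would give. RFC1, the large subunit of the clamp loader, fell from 290 ± 6.12 to 208 ± 8.63 CPM (-0.48, adjusted p = 1.3e-11), and the polymerase delta subunits POLD2 (47.4 ± 0.630 to 31.8 ± 0.956 CPM, -0.57, adjusted p = 4.34e-10) and POLD3 (75.6 ± 5.85 to 53.4 ± 2.27 CPM, -0.50, adjusted p = 2.93e-09) fell with it. The 2 that rose were POLE (0.15, adjusted p = 0.00773), whose adjusted p was 0.0684 without VEH replicate 3 and 0.0617 without SLO replicate 2, and the clamp PCNA (0.10, adjusted p = 0.0279), lost in 10 of 19 alternatives. FEN1 (-0.06, adjusted p = 0.171) and LIG1 (-0.00, adjusted p = 0.945), the flap nuclease and ligase of this branch, were not called, and these 4 genes were named after their values were seen. Of the mitochondrial genes 2 of 6 rose in SLO, near the 32.9% of all genes, the exonuclease MGME1 (86.5 ± 3.93 to 107 ± 3.60 CPM, 0.31, adjusted p = 8.28e-07) and the polymerase subunit POLG2 (20.4 ± 0.496 to 24.7 ± 2.77 CPM, 0.28, adjusted p = 0.00222), and the helicase DNA2 fell (46.2 ± 1.79 to 39.6 ± 0.128 CPM, -0.22, adjusted p = 0.000682).

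Of the 4 enzymes that clean the nucleotide pool 1 rose and 1 fell in SLO, again near the background. DUT, which destroys dUTP and so keeps uracil, the substrate of UNG, out of DNA, was at 112.1, 106.7 and 115.7 CPM in VEH, 80.3, 86.1 and 76.4 CPM in SLO ½, and 56.4, 57.2 and 62.2 CPM in SLO. The groups formed steps without overlap, and DUT fell by 47.6% in SLO (log2 -0.93, SE 0.05, adjusted p = 1.62e-15) and fell by 27.5% in SLO ½ (-0.46, SE 0.05, adjusted p = 5.27e-09). NUDT18 rose at a low level (3.03 ± 0.0508 to 4.17 ± 0.347 CPM, 0.46, adjusted p = 0.0156), a call lost in DESeq2 (adjusted p = 0.0562) and without SLO replicate 2 (0.061). NUDT1, the enzyme that destroys oxidized dGTP, was at 9.02, 9.39 and 7.16 CPM in VEH and 7.14, 8.83 and 9.11 CPM in SLO (-0.02, SE 0.12, adjusted p = 0.911), and like OGG1 showed no called change.

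**Figure D3:**
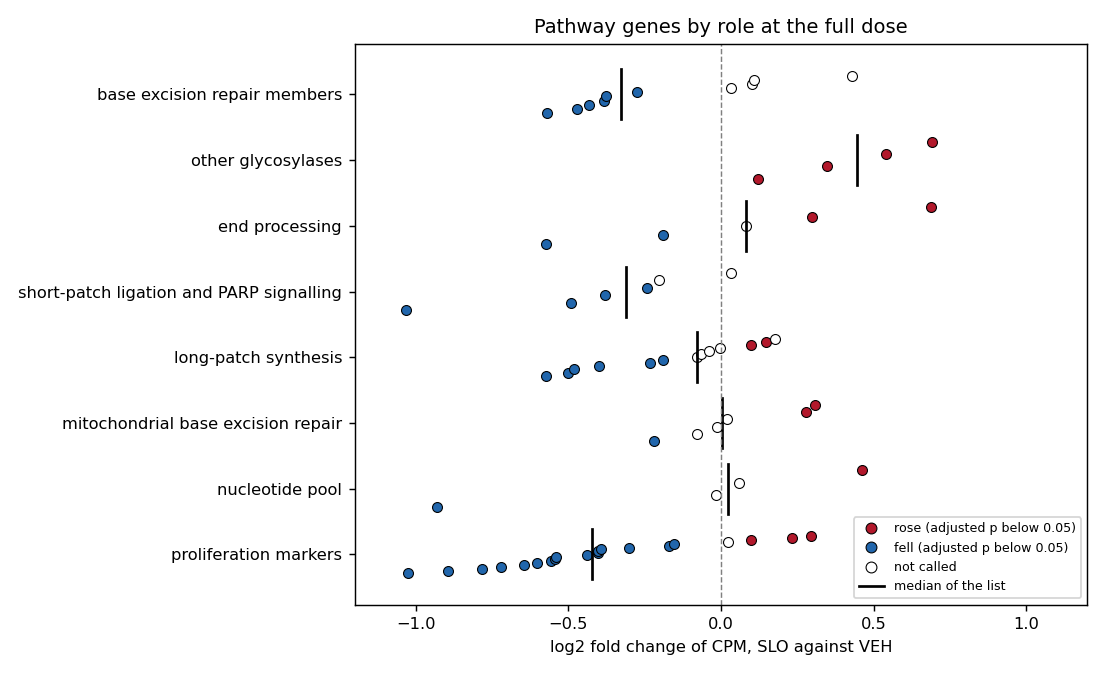
Each point is the log2 fold change of one gene in SLO against VEH, sorted into rows by role, red where it rose, blue where it fell and open where it was not called, with a bar at the median of each row. The other glycosylases lie right of 0, the ligation and PARP row reaches LIG3 at -1.03, and the proliferation markers lie mostly left of 0.

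These shifts changed the mix of glycosylase transcripts. The TPM of the 11 glycosylases summed to 512 ± 7.35 for VEH, 456 ± 7.94 TPM for SLO ½ and 479 ± 17.0 TPM for SLO. UNG made up 43.9% ± 0.771 of that sum in VEH (SD, n = 3), 34.8% ± 1.11 with SLO ½ and 31.5% ± 0.0880 with SLO, without overlap between groups. TDG went from 6.87% ± 0.350 to 10.1% ± 0.506 and 11.8% ± 0.478, and MPG from 5.52% ± 0.799 to 7.82% ± 0.607 and 8.62% ± 0.191. OGG1 held 1.73% ± 0.147, 1.87% ± 0.113 and 1.88% ± 0.111, with overlapping groups. The shares are descriptions without a test, since all shares are parts of 1 sum, and with canonical transcript lengths OGG1 had 6.55%, 6.96% and 6.98% and UNG 38.7%, 30.1% and 27.1%. With the length covered by all exons, which for UNG alone of the 11 is far from the length its TPM implies, UNG had 27.4%, 20.5% and 18.2%, MBD4 23.7%, 25.3% and 25.4%, and OGG1 2.24%, 2.28% and 2.25%. The share of UNG was thus lower in the treated groups by each length, while its size and its rank depend on the length.

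**Figure D4:**
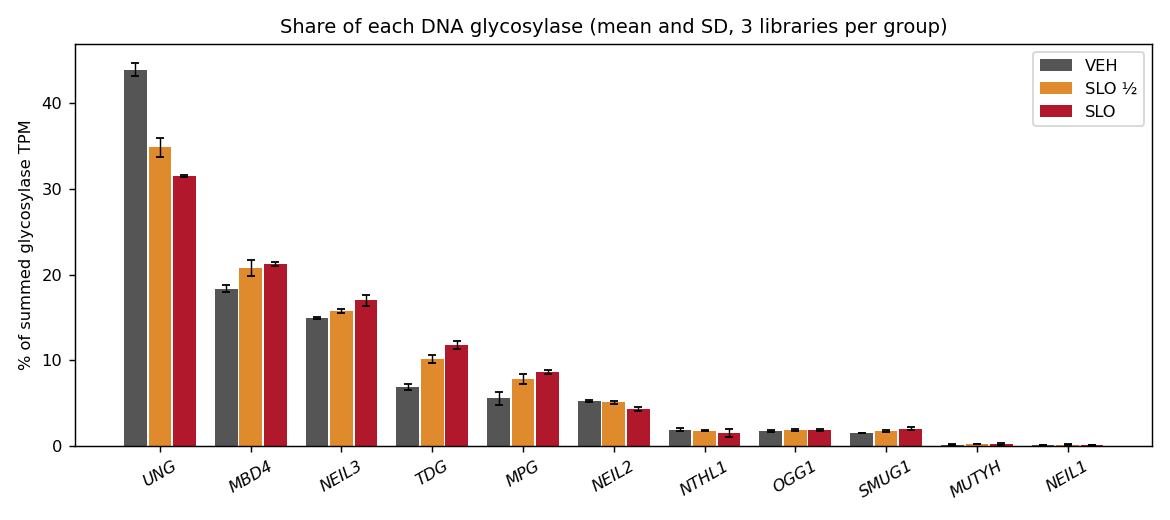
Bars give the mean share of each glycosylase in the summed glycosylase TPM (percent, linear axis from 0) in VEH, SLO ½ and SLO, with error bars for the SD of 3 libraries. UNG drops from 43.9% to 31.5%, TDG climbs from 6.87% to 11.8%, and OGG1 stays below 2%.

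Across the 9 libraries, as a description over points that share their treatment groups, the log2 CPM of UNG correlated with that of XRCC1 (Pearson's r = 0.94), NEIL2 (0.86) and APEX1 (0.85), and NEIL2 with APEX1 (0.93). OGG1 correlated with none of these, with r from -0.09 to 0.00. The genes most like OGG1 over the 9 libraries were PNPLA4 (r = 0.91), ADNP2 (0.90) and CDIN1 (0.89), picked from all tested genes as the highest, so the size of r is set by the choice. PNPLA4 was at 10.6, 10.3 and 10.8 CPM on average in VEH, SLO ½ and SLO, and so rose and fell with single libraries, as OGG1 did, more than with the groups.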

How the data were processed

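The authors prepared polyadenylated RNA with the KAPA RNA HyperPrep kit, used Trimmomatic 0.38 for trimming and STAR 2.7.1a for alignment to GRCh38, and deposited read counts per gene, labelled stranded and not normalized. Each deposited count column also holds 4 lines that name no gene and were left out: unmapped (0.883% to 0.984% of reads), multimapping (7.16% to 8.52%), no feature (5.54% to 8.38%) and ambiguous (3.03% to 3.26%). The authors also deposited TPM. How gene length was set and the annotation release are not given in the sources used here, but 95.7% of 10186 genes with a mean of at least 100 counts had implied lengths within 5% of their GENCODE v44 exon union.

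Counts were tested with edgeR 4.0.16 in R 4.3.3 (filterByExpr, TMM, quasi-likelihood F test, 3 groups, all 9 libraries, no covariate), with Benjamini-Hochberg adjustment over 14727 genes. The study's methods name DESeq2, run here as an alternative (1.42.0), and limma 3.58.1 was used on TPM. Standard errors came from the fold change and its F statistic.

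Named genes were all members, the 3 genes of each role list and of the proliferation markers lowest in p for SLO against VEH, and the 3 genes most correlated with OGG1. Some genes that meet this rule are not reported here. The members and lists were chosen with earlier results of these data known. Library pairs within a group differed by more than sampling noise (chi-square per degree of freedom 1.77 to 4.06). Promoters came from RefSeq. Alternatives changed the test, the scaling, the filter, the libraries, the unit or the replicate block, and the canonical transcript and exon union lengths were added after seeing the data.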

Additional observations from a re-analysis of the deposited data

How the results depend on the processing

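UNG and XRCC1 at both doses, and APEX1, NEIL2 and POLB at the full dose, kept direction and call under all 19 alternatives. Genes called ranged from 8634 to 9930 in SLO (9565 as reported), 6239 to 7749 in SLO ½ (7663) and 4321 to 6367 between doses (6056), and called members from 5 to 7, 3 to 5 and 1 to 4. Of pathway genes 22 to 25, 14 to 20 and 10 to 16 were called, the last 10 without SLO replicate 2. The 4 members called between the doses became 1 in DESeq2 or with no expression filter, 2 with library size only, 2 with limma on log2(TPM + 1), on log2(TPM + 0.1) or on unfiltered TPM, and 1 to 4 with a library left out, and the cause was not tested. With library size only, calls split into 5624 up and 3870 down in SLO (4843 and 4722 as reported) and 4637 and 3049 in SLO ½ (3936 and 3727), and the median log2 change of all genes was 0.09 and 0.07. Limma on log2(TPM + 1) gave 3280 up and 4131 down in SLO ½.

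Signs turned only for members near 0 or with few counts, none of them called in the comparison concerned. OGG1 in SLO ½ was 0.039 with library size only, 0.009 with at least 10 counts in every library and -0.061 to 0.024 with a library left out, and NEIL3 in SLO ½ was 0.008 with library size only. With a library left out, OGG1 in SLO ran from -0.017 to 0.11, NEIL1 in SLO from -0.17 to 0.46 and MUTYH between doses from -0.23 to 0.22. Glycosylase shares with canonical transcript lengths were 6.55%, 6.96% and 6.98% for OGG1 and 38.7%, 30.1% and 27.1% for UNG in VEH, SLO ½ and SLO, and with exon union lengths 2.24%, 2.28% and 2.25% for OGG1 and 27.4%, 20.5% and 18.2% for UNG, moves that the lengths themselves make. Depth limits MUTYH and NEIL1.

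Replicate numbers did not pair the libraries: deviations of same-numbered libraries correlated at 0.003 to 0.087, 0 of 9 above 0.1. A fit with the replicate block called 9622, 7749 and 6162 genes and 6, 4 and 4 members, and changed no member's call.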
